A study of Mus musculus with 7 samples.

Results

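Hcn2, Hcn3 and Hcn4 encode hyperpolarization-activated cyclic nucleotide-gated channels, the pacemaker channels of heart and brain. They were followed across 7 RNA libraries, each from the whole brain of a C57BL/6 pup at P0, the day of birth. The members were the rows of the deposited table with these symbols, 3 of 55536 genes, and all 3 passed the filter on low counts. Of the libraries, 4 came from wild-type animals (2 males and 2 females). The other 3 came from littermates that carried 1 Setd2 allele with a missense change in the part coding for the SRI domain and 1 wild-type allele, here Setd2SRI/wt (1 male and 2 females). No animal was treated, each library was made from frozen and pulverized brain, and litters are not named. The p-values therefore measure the spread between these libraries. Total counts ran from 4192021 to 16064644 per library. The set was chosen by values measured in these same libraries, taken here to be the genotype log2 fold changes and the CPM levels behind them. The genotype differences and the levels of the 3 genes are therefore given as a description without a test. Setd2 itself, whose point mutation a count does not show, had 103.5 ± 6.72 CPM (SD, n = 4) in wild type against 96.9 ± 17.9 CPM (SD, n = 3) in Setd2SRI/wt brains, where CPM is the count relative to the library's total, with TMM scaling for differences in library composition.

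HCN channels open when the membrane becomes more negative and carry an inward cation current, called Ih in neurons and the funny current in the heart. Each channel is a tetramer whose subunits bind cyclic AMP, which makes opening easier. HCN2 is widespread in the brain and its loss causes absence epilepsy in mice, HCN4 paces the sinoatrial node and is enriched in thalamus, and HCN3 is a lesser known subunit with little response to cyclic AMP. Setd2 encodes the enzyme that trimethylates histone H3 at lysine 36, and its SRI domain binds RNA polymerase II.

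In mm10, Hcn2 (ENSMUSG00000020331) lies on chromosome 10 from 79716634 to 79736108 on the plus strand. Hcn3 (ENSMUSG00000028051) lies on chromosome 3 from 89146074 to 89160196 on the minus strand. Hcn4 (ENSMUSG00000032338) lies on chromosome 9 from 58823412 to 58863175 on the plus strand. Each had 8 merged exons in GENCODE mouse release 21, over 3195, 4154 and 6118 bases of exon. The upstream windows of Hcn2 and Hcn4 are shown because the promoter set used here held entries for these genes and none for Hcn3. Each is the 250 bases before the RefSeq transcription start on GRCm38.p6, plus strand, 5′ to 3′, at chr10:79716384-79716633 for Hcn2 and chr9:58822699-58822948 for Hcn4. Capitals mark the GC box GGGCGG on either strand, and adjoining matches run together.
Hcn2: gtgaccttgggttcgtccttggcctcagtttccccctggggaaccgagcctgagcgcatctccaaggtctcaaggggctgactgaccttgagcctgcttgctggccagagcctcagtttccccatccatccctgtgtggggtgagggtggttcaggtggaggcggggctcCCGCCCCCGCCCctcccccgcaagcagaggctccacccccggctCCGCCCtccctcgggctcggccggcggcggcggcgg
Hcn4: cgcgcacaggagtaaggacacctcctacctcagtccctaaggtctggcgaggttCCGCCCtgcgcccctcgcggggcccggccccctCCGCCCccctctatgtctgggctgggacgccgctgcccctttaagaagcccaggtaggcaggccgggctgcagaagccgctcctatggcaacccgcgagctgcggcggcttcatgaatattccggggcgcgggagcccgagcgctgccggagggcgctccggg

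Both windows were rich in G and C, at 70.4% for Hcn2 and 71.2% for Hcn4, against a median of 52.4% over 32851 windows of the same length. The Hcn2 window held 3 GC boxes and the Hcn4 window 2. At least 1 GC box stood in 32.7% of all windows, at least 2 in 16.7% and at least 3 in 8.5%. Searched on both strands, the TATA box TATAAA, the CCAAT box CCAAT, the cyclic AMP response element TGACGTCA, its shorter form TGACG and the E-box CACGTG had 0 matches in either window. They stood in 12.4%, 33.8%, 1.5%, 17.8% and 6.0% of all windows, and every TGACGTCA also holds TGACG. These matches describe the letters of the windows only.

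Reads of the 3 genes could be told apart from those of each other. Of all 76-base windows of their transcripts, the length of a read, 0 were found in another HCN gene. For Hcn2 and Hcn4, 0 were found in any other gene. For Hcn3, 15.2% were also found in Pklr, the gene of red cell and liver pyruvate kinase, which lies on the opposite strand and shares 711 exon bases with the end of Hcn3. Pklr had 0 to 8 counts per library. The strand setting of the counting is not given, so reads in the shared stretch are uncertain and the Hcn3 counts with them. Hcn2 ends 14 bases from Polrmt, the mitochondrial RNA polymerase gene, which faces it from the other strand and had 23.1 ± 2.94 CPM (SD, n = 4) in wild type against 23.8 ± 3.57 CPM (SD, n = 3) in Setd2SRI/wt brains. Neo1, the neogenin gene 11511 bases beyond Hcn4, had 108.9 ± 3.24 CPM (SD, n = 4) against 103.5 ± 8.13 CPM (SD, n = 3), with an adjusted p of 0.888 in edgeR.

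Per length of exon, Hcn2 had the highest level of the 3 genes in the newborn brain, and Hcn3 and Hcn4 followed at far lower levels. Hcn2 had a level of 41.7 ± 4.37 CPM per kilobase (SD, n = 7), with a lowest value of 34.7, a median of 41.9 and a highest of 49.7. This level was above that of 94.4% of the 17260 tested genes. Hcn3 had 4.12 ± 0.793 CPM per kilobase (SD, n = 7), from 3.23 to 5.28, close to the median of 4.18 over all tested genes. Hcn4 had 1.86 ± 0.672 CPM per kilobase (SD, n = 7), from 0.988 to 2.66, above 32.2% of tested genes. The ranges of the 3 genes did not overlap.

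Within each library Hcn2 exceeded Hcn3 by a log2 difference of 3.35 ± 0.20 per length (SD, n = 7), a ratio of 10.2. Hcn2 exceeded Hcn4 by 4.57 ± 0.51 (SD, n = 7), a ratio of 23.8, and Hcn3 exceeded Hcn4 by 1.22 ± 0.35 (SD, n = 7), a ratio of 2.33. Each order held in 7 of 7 libraries. With counts not divided by exon length, the log2 differences were 2.98, 3.64 and 0.66 in the same order, so the Hcn2 to Hcn4 ratio depends on the exon lengths used. With the bases shared with Pklr taken out of the length of Hcn3, its log2 difference was 3.08 below Hcn2 and 1.49 above Hcn4.

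**Figure D1:**
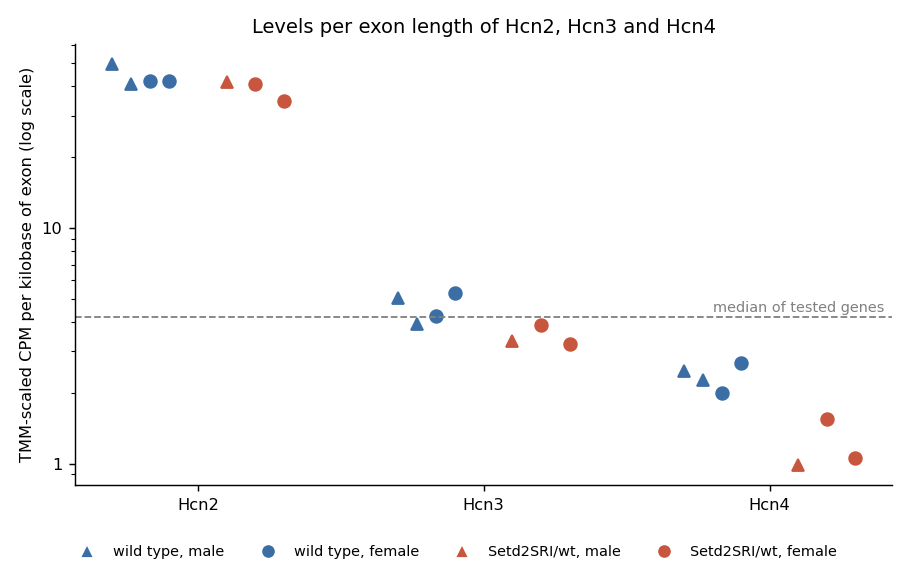
Level of Hcn2, Hcn3 and Hcn4 per library, in TMM-scaled CPM per kilobase of exon on a log axis, with wild-type libraries in blue, Setd2SRI/wt libraries in red, triangles for males and circles for females. Hcn2 sits between 34.7 and 49.7, and Hcn4 is lowest, between 0.988 and 2.66. The dashed line is the median of all tested genes, 4.18.

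The 3 genes had lower means in the Setd2SRI/wt brains than in wild type, by 10.1% for Hcn2, 24.7% for Hcn3 and 48.9% for Hcn4. For Hcn4 and Hcn3 every mutant library lay below every wild-type library, and for Hcn2 the groups overlapped. All mutant libraries lay below all wild-type libraries in 4.08% of all tested genes and above them in 3.83%, and 48.6% of tested genes had a log2 fold change below 0. These values belong to the comparison in which the genes were chosen, so nothing is read from them. In whole-brain RNA, fewer cells of a type, less RNA per cell and unequal tissue between libraries cannot be told apart. The libraries were unequal in hindbrain markers, whose sum ran from 0.237 CPM in Setd2SRI/wt female 2 to 57.2 CPM in wild-type male 1.

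Hcn4, the subunit of the sinoatrial node and the thalamus, had 15.2 and 13.8 CPM in wild-type males 1 and 2 and 12.2 and 16.3 CPM in wild-type females 1 and 2. It had 6.05 CPM in the Setd2SRI/wt male and 9.51 and 6.48 CPM in Setd2SRI/wt females 1 and 2. The wild-type values lay close together, and among the mutants female 1 was highest, still below the lowest wild-type value. The group means were 14.4 ± 1.75 CPM (SD, n = 4) and 7.34 ± 1.89 CPM (SD, n = 3), and the log2 fold change, Setd2SRI/wt over wild type, was -0.9998 ± 0.1935 (SE). A log2 fold change at or below this value was seen in 1.4% of tested genes.

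The counts behind these values were small. Hcn4 had 58 to 249 counts in the wild-type libraries and 33, 62 and 82 in the mutants. Counting error alone was thus 17.4% in the mutant male and 12.7% in mutant female 1, against 6.34% to 13.1% in wild type. As raw CPM, without TMM scaling, the highest mutant value was 9.42, with an exact 95% binomial (Clopper-Pearson) interval of 7.22 to 12.1. The lowest wild-type value was 12.2, with an interval of 10.6 to 14.0, so the intervals of these 2 libraries overlapped. Such intervals cover counting error only. In the mutant male the value was 5.96, with an interval of 4.10 to 8.37.

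Hcn3, the subunit with little response to cyclic AMP, had 20.96 and 16.2 CPM in wild-type males 1 and 2 and 17.6 and 21.9 CPM in wild-type females 1 and 2. It had 13.7 CPM in the Setd2SRI/wt male and 16.1 and 13.4 CPM in Setd2SRI/wt females 1 and 2. The groups were separate by a narrow margin, since wild-type male 2 and mutant female 1 differed by less than their counting errors of 12.1% and 9.76%. The means were 19.2 ± 2.73 CPM (SD, n = 4) and 14.4 ± 1.46 CPM (SD, n = 3), with a log2 fold change of -0.44 ± 0.15 (SE). Counts ran from 68 to 335 in wild type against from 75 to 170 in Setd2SRI/wt brains.

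Hcn2, the main subunit by level, had 159 and 130.4 CPM in wild-type males 1 and 2 and 134 CPM in each of the wild-type females. It had 134 CPM in the Setd2SRI/wt male and 131 and 111 CPM in Setd2SRI/wt females 1 and 2. Wild-type male 1 stood above all other libraries and mutant female 2 below, and the other 5 libraries lay between 130.4 and 134 CPM. The means were 139 ± 13.1 CPM (SD, n = 4) and 125 ± 12.5 CPM (SD, n = 3), a difference close to the spread within each genotype, with a log2 fold change of -0.14 ± 0.11 (SE).

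**Figure D2:**
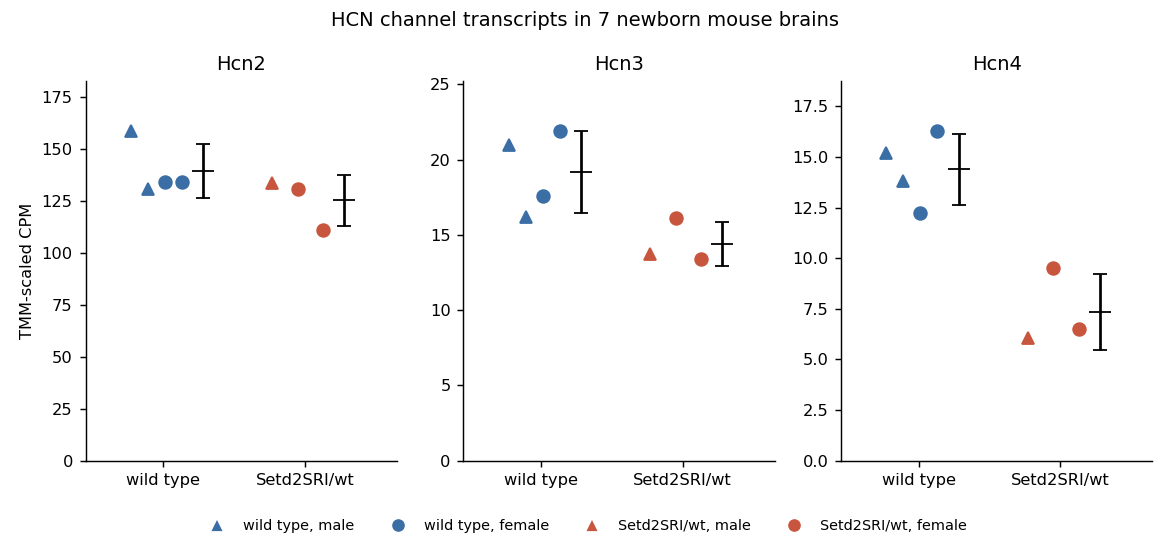
TMM-scaled CPM of Hcn2, Hcn3 and Hcn4 in each library, with wild type in blue, Setd2SRI/wt in red, triangles for males, circles for females, and bars for the mean and SD of each genotype (n = 4 and n = 3). The Setd2SRI/wt values of Hcn4 lie between 6.05 and 9.51 CPM, below the wild-type range of 12.2 to 16.3 CPM, while the Hcn2 groups overlap.

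Ratios within a library do not depend on scaling. They are made from the same values in which the genes were chosen, so they are a description and no further support. No share over all pairs of genes was computed to set beside them. There were 10.4 ± 1.36 Hcn4 counts for every 100 Hcn2 counts (SD, n = 4) in wild type, from 9.13 to 12.2. In the mutants there were 5.88 ± 1.38 (SD, n = 3), from 4.52 to 7.27, and the ranges did not overlap. Against Hcn3, there were 75.5 ± 6.81 Hcn4 counts per 100 in wild type against 50.4 ± 7.74 in Setd2SRI/wt brains, again without overlap. For Hcn3 per 100 Hcn2 counts the values were 13.8 ± 1.79 and 11.6 ± 1.10, and the highest value among mutants, 12.3, lay just under the lowest in wild type, 12.4.

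Of the summed level of the 3 genes per kilobase, Hcn2 made up 86.2% ± 1.42 (SD, n = 4) in wild type against 89.3% ± 1.23 (SD, n = 3) in Setd2SRI/wt brains. Hcn4 made up 4.66% ± 0.535 and 2.74% ± 0.605, and Hcn3 9.12% ± 1.02 and 7.94% ± 0.670. The summed level itself was 50.5 ± 4.59 CPM per kilobase in wild type against 43.8 ± 4.21 in Setd2SRI/wt brains, where the lowest value, 39.0, came from Setd2SRI/wt female 2.

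**Figure D3:**
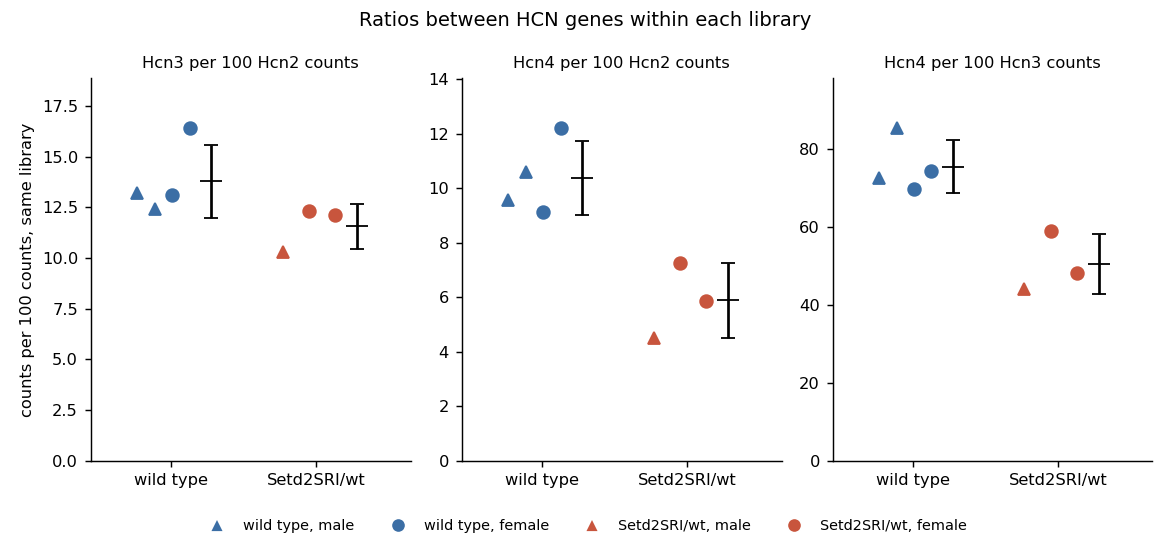
Counts of Hcn3 or Hcn4 for every 100 counts of Hcn2 or Hcn3 in the same library, with wild type in blue, Setd2SRI/wt in red, triangles for males, circles for females, and bars for the mean and SD. Hcn4 per 100 Hcn2 counts lies between 9.13 and 12.2 in wild type against between 4.52 and 7.27 in Setd2SRI/wt brains.

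Since every mutant library lay below every wild-type library for Hcn4, its mean in the mutants was of necessity lower in both sexes. Female means were 14.3 CPM in wild type against 7.99 CPM in Setd2SRI/wt brains (n = 2 each), and male values were a mean of 14.5 CPM in 2 wild-type males and 6.05 CPM in the 1 mutant male. With each library left out in turn, the log2 fold change of Hcn4 ran from -1.19 to -0.87, that of Hcn3 from -0.53 to -0.35 and that of Hcn2 from -0.20 to -0.08. The Hcn2 value was -0.08 without Setd2SRI/wt female 2 and -0.09 without wild-type male 1.

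**Figure D4:**
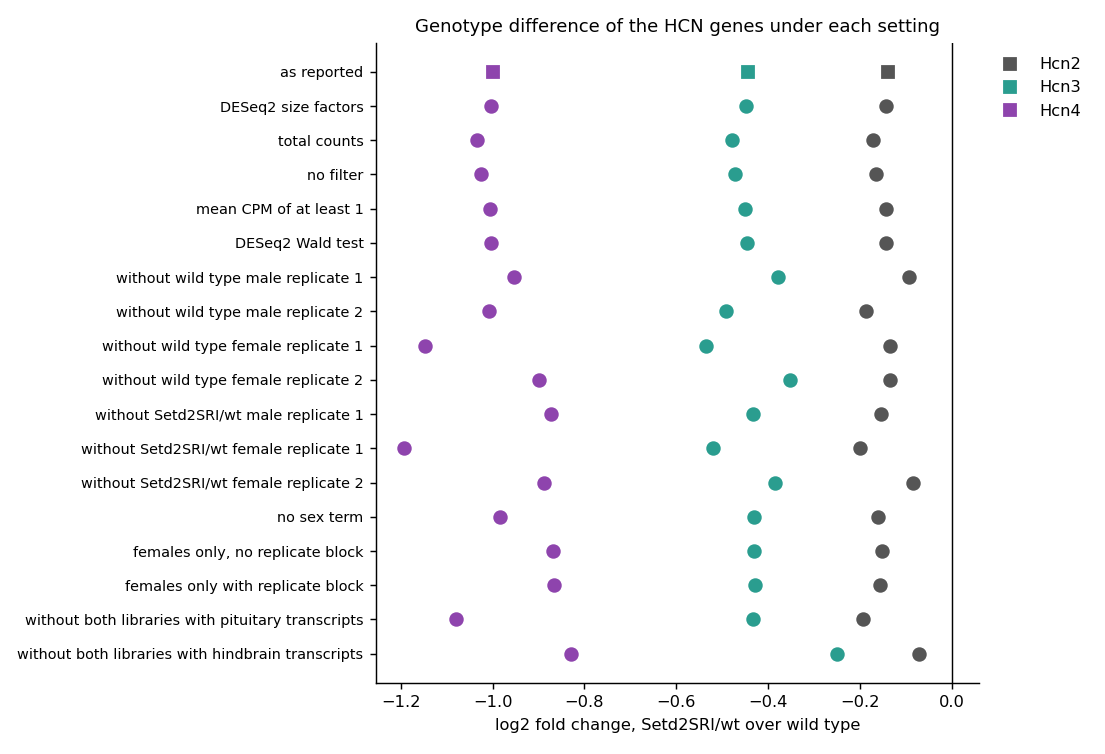
Log2 fold change of each gene, Setd2SRI/wt over wild type, as reported (squares) and under each alternative (circles), for Hcn2 in grey, Hcn3 in green and Hcn4 in purple. All values lie below 0, with Hcn4 between -1.19 and -0.83 and Hcn2 between -0.20 and -0.07.

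Whether these channels differ between males and females is a comparison that did not choose them. None of the 3 passed in the quasi-likelihood F-test of edgeR with genotype in the model, where 8 of 17260 genes passed (0.0463%). The log2 fold change, male over female, was 0.13 ± 0.11 (SE) for Hcn2, -0.07 ± 0.15 for Hcn3 and -0.08 ± 0.19 for Hcn4, each with an adjusted p of 0.999 in edgeR. For Hcn2 this error leaves room for a difference of the size seen between genotypes. The test of whether the genotype difference itself differed between the sexes gave a log2 value of 0.03 ± 0.23 for Hcn2, -0.04 ± 0.34 for Hcn3 and -0.40 ± 0.42 for Hcn4, each with an adjusted p of 0.999 in edgeR. Of all genes 0 (0%) passed that test, with 575 at an unadjusted p under 0.05 and 2 called by DESeq2, and it rests on 1 mutant male.

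Genes that act with HCN channels, relatives of these channels and other channels of rhythmic firing were taken as 7 lists. These held 58 genes, of which 54 were tested. By genotype 0 passed in edgeR, against 3 of 17260 genes in all (0.0174%). Over all genes 0.00579% passed with higher and 0.0116% with lower values in the mutants. DESeq2 called 1 of the 54, Kcnh3, against 65 of 17260 genes in all. At an unadjusted p under 0.05 in edgeR, 5 of the 54 had higher and 5 had lower means in the mutants. Over all tested genes the shares were 3.84% and 5.11%, both smaller than those of the lists, and no set test was run. The median log2 fold change of the listed genes was 0.03, against 0.01 over all tested genes.

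Of 9 listed partners and regulators of HCN channels 8 were tested, 4 with a positive and 4 with a negative log2 fold change. Pex5l, whose product TRIP8b is the auxiliary subunit that steers HCN channels in neurons, in wild type had 184 ± 14.9 CPM (SD, n = 4) against 176 ± 34.4 CPM (SD, n = 3) in Setd2SRI/wt brains. Vapb, a membrane contact protein that raises HCN2 currents, had the highest level of the list per kilobase, with 159 ± 5.69 and 157 ± 10.7 CPM. Rest, the transcriptional repressor that acts on HCN genes in neurons, had 7.28 ± 1.02 and 7.65 ± 0.121 CPM. Mrvi1, whose product IRAG is a regulator of HCN4, had the smallest p of the list (adjusted p = 0.765 in edgeR) at a log2 fold change of -0.32 ± 0.22 (SE).

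Cyclic AMP, the ligand of the channels, is made by adenylyl cyclases and degraded by phosphodiesterases. Of 10 adenylyl cyclase genes 0 passed, and at an unadjusted p under 0.05 there were 1 with a higher and 2 with lower means. Adcy1, the calcium-stimulated cyclase of cortical neurons, had the highest level per kilobase, with 598 ± 68.2 CPM in wild type against 733 ± 107 CPM in Setd2SRI/wt brains (a log2 change of 0.32, adjusted p = 0.411 in edgeR). Adcy7 had 15.6 ± 4.18 and 11.2 ± 0.760 CPM (a log2 change of -0.56, adjusted p = 0.289). Of 16 phosphodiesterase genes 12 had a positive log2 fold change and 0 passed, and Pde1b, with the smallest p and the highest level per kilobase, had 228 ± 33.8 and 281 ± 64.5 CPM (a log2 change of 0.32, adjusted p = 0.547).

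Among the relatives of HCN channels, 8 KCNH potassium channel genes were tested and 0 passed in edgeR. Kcnh3, a forebrain member with the smallest p and the highest level per kilobase of the list, had 84.1 ± 10.2 CPM in wild type against 109 ± 15.3 CPM in Setd2SRI/wt brains (a log2 change of 0.42, adjusted p = 0.166 in edgeR). The olfactory and retinal cyclic nucleotide-gated channel genes were near the limit of detection. Of 6, 3 were tested, Cnga1 had 0 counts in all libraries, and Cngb1 and Cnga4 had wild-type means of 2.26 and 1.28 CPM.

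T-type calcium channels and leak channels shape rhythmic firing together with Ih. The 3 T-type genes had log2 fold changes of -0.05 for Cacna1g, 0.14 for Cacna1h and 0.04 for Cacna1i, with adjusted p-values from 0.816 to 0.961 in edgeR. Cacna1g, the T-type channel of thalamic relay neurons, had 124 ± 11.04 CPM in wild type against 120 ± 8.21 CPM in Setd2SRI/wt brains. Of 6 leak channel genes 0 passed. Nalcn, the sodium leak channel, had 149 ± 14.2 and 125 ± 23.5 CPM (a log2 change of -0.31, adjusted p = 0.325 in edgeR), and Kcnk1, the list's highest per kilobase, had 85.8 ± 17.4 and 88.5 ± 3.84 CPM.

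Marker sums of some brain regions differed between the genotype groups without overlap, those of others overlapped, and their part in the Hcn4 and Hcn3 differences was not tested. The thalamus list summed to 421 to 469.8 CPM in wild type against 298 to 366 CPM in Setd2SRI/wt brains, without overlap. Of its 8 genes 7 had a negative log2 fold change and 1 passed, Slc17a6, the vesicular glutamate transporter of subcortical neurons, which in wild type had 134 ± 11.2 CPM (SD, n = 4) against 76.6 ± 13.6 CPM (SD, n = 3) in Setd2SRI/wt brains (a log2 change of -0.84 ± 0.12, SE, adjusted p = 0.0295 in edgeR). In CPM the thalamus genes that differed most were Slc17a6 and Calb2, which had 76.9 ± 14.1 against 42.5 ± 21.1 CPM, with overlap. The log2 fold change was -0.58 for Tcf7l2, -0.69 for Lhx9 and -0.89 for Gbx2. It was nearer 0 for Rora (-0.11), Foxp2 (-0.14) and Prox1 (0.05), so the thalamus sum does not stand for all its genes alike. The cortex list summed to 779 to 1049 CPM in wild type against 1166 to 1181 CPM in Setd2SRI/wt brains, with all 8 log2 fold changes positive and 0 genes called. All 8 striatal genes also had positive log2 fold changes, with sums of 472 to 936 and 659 to 1068 CPM and 0 called. Lists of midbrain dopamine neurons (96.0 to 216 and 77.8 to 89.1 CPM), cerebellum (119 to 159 and 66.9 to 118 CPM) and hypothalamus (44.5 to 240.5 and 21.8 to 59.4 CPM) had 0 genes called in edgeR. Log2 fold changes were negative for 5 of 6 tested dopamine neuron genes, 7 of 7 cerebellum genes and 9 of 9 hypothalamus genes. The medians of these lists were -1.33, -0.74 and -1.29, against -0.63 for the thalamus list, so lower values were not limited to thalamus markers. Sums for astrocytes (4500 to 5268 against 4862 to 5454 CPM) and the oligodendrocyte lineage (4438 to 6284 against 4553 to 5666 CPM) overlapped. Of the dopamine neuron, cerebellum and hypothalamus lists DESeq2 called Ddc and Slc18a2, of dopamine neurons, and Sim1, of the hypothalamus. With Slc17a6 it called 4 of 97 tested tissue markers, against 65 of 17260 genes in all.

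The libraries also differed in hindbrain and pituitary transcripts, and the part of these in the HCN differences was tested only by leaving libraries out. The hindbrain list summed to 57.2 CPM in wild-type male 1 and 13.7 CPM in wild-type female 2, and to between 0.237 and 0.952 CPM in the other 5 libraries. Pituitary hormone transcripts, Gh and Prl together, had 220 counts in wild-type female 2, 16 in Setd2SRI/wt female 1 and 0 to 6 elsewhere. Without the libraries with hindbrain transcripts the log2 fold change was -0.83 for Hcn4, -0.25 for Hcn3 and -0.07 for Hcn2, so that the Hcn3 and Hcn2 values were nearer 0 by over 1.5 times. Without those with pituitary transcripts they were -1.08, -0.43 and -0.19.

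HCN4 is also the channel of the heart's pacemaker and HCN channels are found in sensory ganglia, so markers of both were read. Of 7 heart muscle genes, the atrial genes Myl7 and Nppa and the cardiac actin Actc1 were at or below 0.502 CPM in every library. Cardiac Myh6 and Tnnt2 were detected in all libraries, Myh6 at 3.07 to 9.89 CPM and Tnnt2 at 4.28 to 8.14 CPM, and both overlapped between genotypes. The list summed to 22.5 to 33.8 CPM in wild type against 22.6 to 30.8 CPM in Setd2SRI/wt brains. The member with the highest level was Shox2, also a thalamic gene, with 8.84 to 21.8 CPM across the libraries. The sensory ganglia list summed to 14.8 to 18.7 CPM in wild type against 8.14 to 11.9 CPM in Setd2SRI/wt brains, without overlap. Of its 5 tested genes 0 were called, and all 5 had a negative log2 fold change, with a median of -0.86. Prph, the peripherin gene, had the list's smallest p, with 4.28 ± 1.60 CPM (SD, n = 4) against 1.51 ± 0.247 CPM (SD, n = 3), no overlap and an adjusted p of 0.192 in edgeR. All mutant libraries lay below all wild-type libraries, as for Prph, in 4.08% of all tested genes. Isl1 had the highest level of the list in CPM, 6.62 ± 1.93 against 5.15 ± 0.905 with overlap. The nociceptor markers Scn10a and Trpv1 were at or below 0.549 CPM in every library, and the part of this list in the Hcn4 difference was not tested.

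**Figure D5:**
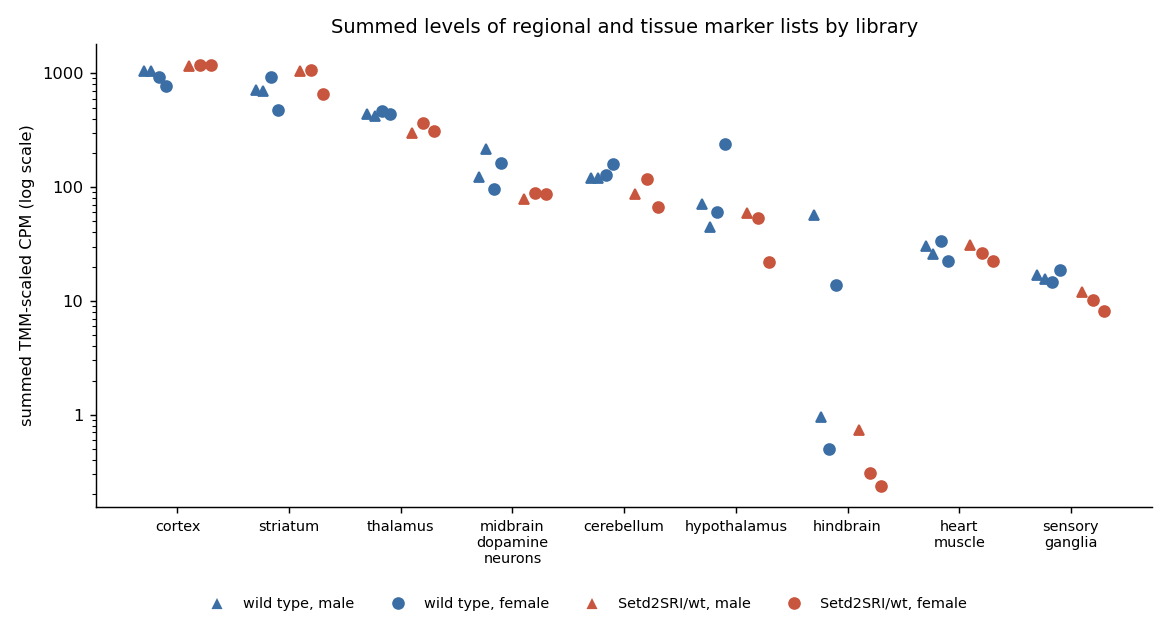
Summed TMM-scaled CPM of marker lists in each library on a log axis, with wild type in blue, Setd2SRI/wt in red, triangles for males and circles for females. The thalamus sums are lower in Setd2SRI/wt (298 to 366 CPM) than in wild type (421 to 469.8 CPM), and the hindbrain sum is high in wild-type male 1, at 57.2 CPM.

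For each channel gene the 3 genes with the most similar profile were sought among 15860 others with a mean of at least 1 CPM, by the root-mean-square difference of centred log2 CPM over the 7 libraries. Likeness was closest to Hcn4 for Slc10a4, a transporter of cholinergic and monoaminergic neurons, with a difference of 0.0662 where the profile of Hcn4 itself had a root mean square of 0.533. Slc10a4 had 8.34 ± 0.817 CPM (SD, n = 4) in wild type against 4.23 ± 0.857 CPM (SD, n = 3) in Setd2SRI/wt brains. The search compared the same 7 libraries, so a gene this near to Hcn4 must share its genotype difference, which is no further support. Fam196b (0.122) and Dnaic2 (0.138) followed. Nearest to Hcn3 were Kcnj10, the inward rectifier of astrocytes (0.0702), the growth factor gene Fgf1 (0.074) and Disp2 (0.0779), where Hcn3 had 0.252. Nearest to Hcn2 were Ccdc92b (0.0455), Lrrc75a (0.0479) and Nmral1 (0.0484), where Hcn2 had 0.139. The channel genes were not each other's nearest, as Hcn3 ranked 153 and Hcn2 ranked 1831 in closeness to Hcn4.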

How the data were processed

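Per the labels' protocols, ribosomal RNA was removed from total RNA with a kit that keeps strand, and 76-base pairs were read. The authors deposited raw gene counts, 1 per gene and library. The submitters' processing notes name mm10, HISAT2, featureCounts, edgeR, FastQC and Trim Galore. No versions and no strand setting are given in the sources used here. The column of the mutant male differs slightly from its label and was matched as the only mutant male. After edgeR's filterByExpr and TMM factors, two-sided quasi-likelihood F-tests were run (edgeR 4.0.16, R 4.3.3) on a model of genotype plus sex, at a Benjamini-Hochberg threshold of 0.05. The SE is the absolute log2 fold change over the square root of F. The fit was tested on simulated data. Levels per kilobase used merged exons of GENCODE release 21. Promoter windows are from RefSeq, where Hcn2 and Hcn4 matched and Hcn3 did not.

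The members and lists were chosen with earlier results of these data known. Genes named beside the members were neighbours of theirs, each pathway list's gene of smallest genotype p and of highest level, and the 3 genes nearest in profile. Further genes (Pex5l, Rest, Cacna1i, the DESeq2 calls and the heart, ganglion and thalamus markers) were named after their values were seen. The pairing of same-numbered libraries was checked. Alternatives were other scalings and filters, DESeq2 1.42.0, leaving out libraries, no sex term, females only and a replicate block. Depth was 4192021 to 16064644 counts per library.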

Additional observations from a re-analysis of the deposited data

Results flagged for a closer look

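In wild type, Hcn2 stood apart in 1 of 4 libraries. Wild-type male 1 had 159 CPM against 130.4 to 134 CPM in the other 3, a gap of 0.869 of the group's whole range. The same library had the highest hindbrain sum, and without it the Hcn2 log2 fold change between genotypes was -0.09. Among the marker lists, wild-type female 2 stood apart for the hypothalamus sum (a gap of 0.865 of the range) and the pituitary sum (0.924). Wild-type male 2, the shallowest library, stood apart for the blood sum (0.942). Altogether 21 groups of 4 libraries were looked at in this way, and chance marks about 1 in 20.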

How the results depend on the processing

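Over all alternatives the log2 fold changes of Hcn2, Hcn3 and Hcn4 between genotypes stayed negative, from -0.20 to -0.07, from -0.53 to -0.25 and from -1.19 to -0.83. That of Hcn3 moved beyond the spread between libraries, to -0.2488, without the libraries with hindbrain transcripts, an exclusion chosen after seeing the data, as was that of the libraries with pituitary transcripts. The genotype calls over all genes, 3 as reported, were 331 with no filter, 1 with a mean of at least 1 CPM, 1 with total counts as scaling, 65 with DESeq2 and 0 without the sex term. They were 57 without the pituitary libraries, 0 without the hindbrain libraries and 0 to 110 with each library left out. In females alone 1 gene was called without and 80 with a replicate block. With the replicate block Hcn2, Hcn3 and Hcn4 had -0.16, -0.43 and -0.87, and without it -0.15, -0.43 and -0.87. Deviations of same-numbered females correlated at -0.058 over 17260 genes in 2 pairs, and no label gives the numbers a shared origin. Sex calls, 8 as reported, were 136 with no filter, 15 in wild type alone and 8 to 20 with each library left out. The sex difference turned positive for Hcn4 in wild type alone (0.03681), and without the pituitary libraries for Hcn3 (0.09374) and Hcn4 (0.1538). With each library left out it ran from 0.05573 to 0.2073 for Hcn2, from -0.1912 to 0.03883 for Hcn3 and from -0.2289 to 0.03857 for Hcn4. Interaction calls, 0 as reported, were 21 with no filter, 2 with DESeq2, 412 without the pituitary libraries and 0 to 4 with each library left out. The interaction then ran from -0.08979 to 0.1879 for Hcn2, from -0.1944 to 0.1938 for Hcn3 and from -0.6926 to -0.1388 for Hcn4, and without the mutant male it could not be estimated. In wild type alone the level differences were 3.247, 4.216 and 0.9691. The cause of these shifts was not tested. Depth limits Hcn4 most, with 33 counts in the mutant male.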
